A study of Mus musculus with 9 samples.

Results

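Serum response factor (SRF) and YAP link the actin cytoskeleton to transcription, and 10 of their best known target genes are described here in LLC cells with and without CD47. The contractile SRF targets were Acta2, Tagln, Cnn1, Cnn2, Myl9, Tpm1 and Tpm2, and the YAP targets were Ccn1, Ccn2 and Ankrd1. They were found by symbol among 50813 genes listed. Of the 10, 6 passed a filter on low counts that left 14593 genes, and Tagln, Cnn1, Myl9 and Ccn2 did not.

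When G-actin is built into filaments, the cofactors MRTF-A and MRTF-B are released from it, enter the nucleus and switch on genes with SRF, among them genes of the contractile apparatus of smooth muscle and of stress fibres. YAP and its relative TAZ are kept out of the nucleus by the kinases of the Hippo pathway and, when active, bind TEAD factors and switch on Ccn1, Ccn2 and Ankrd1. Stiff surroundings, cell spreading and RhoA activity drive both routes in adherent cells, and the targets of the routes overlap in part.

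LLC is a mouse Lewis lung carcinoma line, purchased with a stable luciferase transgene, and is the parent of all 3 groups. The groups were WT cells, CD47 KO clone E3 and CD47 KO clone E5, each with 3 libraries from separate biological replicates grown in culture in DMEM with serum. CD47 is the cell surface receptor best known as a signal against phagocytosis, and the KO clones were made by electroporating Cas9 ribonucleoproteins with a guide to Cd47 and expanding single cells. There is 1 WT line and 1 line per clone, so a difference between a clone and WT cannot be told apart from a difference between lines that arose for another reason, and p-values measure the spread between replicates within a line. Polyadenylated RNA was sequenced, and the values are read counts per gene, given as CPM, the count scaled by TMM to a common library size.

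Total counts per library ran from 44257404 to 55095219, and 3 counts, the detection limit used here, were worth 0.0555 to 0.066 CPM. Cd47 was at 182 ± 3.92 CPM in WT (SD, n = 3), 44.6 ± 6.87 in E3 and 17.4 ± 1.66 in E5, lower in every KO library than in any WT library. Replicate 3 of E3 stood apart from the other E3 libraries, from which it differed by 186 and 224 in chi-square per degree of freedom over genes (4.71 to 37.9 for all other replicate pairs), and called values of the listed genes that lost their call or moved by more than 1.5 times without it are given both ways. LLC cells had the mesenchymal genes Vim and Fn1 at high levels, while the epithelial genes Cdh1 and Epcam had at most 6 counts in any library. Of the markers of other cell types, none of 4 immune and none of 4 endothelial genes passed the filter, and Thy1, a fibroblast gene, had 0 counts throughout. Of 5 smooth muscle genes, 3 passed (Smtn, Synpo2 and Des), Myh11 had at most 9 counts in any library and Lmod1 had 0; their summed level, nearly all Smtn, was 105 to 123 CPM in WT, 117 to 148 in E3 and 103 to 126 in E5. Summed epithelial markers, nearly all Krt8 and Krt18, were at 451 to 459 CPM in WT, 127 to 199 in E3 and 896 to 958 in E5. Their part in the results below was not tested.

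The 250 bases before the transcription start are shown for the 6 genes with a match there to the binding motifs of these pathways. Sequences are from RefSeq on GRCm38.p6, read 5′ to 3′ on the strand of the gene, and 8 of the 10 genes had an entry. Capitals mark the TEAD core CATTCC or, on the other strand, GGAATG, and in Cnn2 and Myl9 the CArG box, the element that SRF binds, in its strict form. That form is CC, then 6 bases of A or T, then GG, and looser forms are left unmarked. The Acta2 stretch lies at chr19:34255374-34255623 on the minus strand, the Tpm1 stretch at chr9:67049214-67049463 on the minus strand, the Cnn2 stretch at chr10:79988350-79988599 on the plus strand, the Myl9 stretch at chr2:156775214-156775463 on the plus strand, the Ccn1 stretch at chr3:145649986-145650235 on the minus strand and the Ankrd1 stretch at chr19:36119845-36120094 on the minus strand.
Acta2: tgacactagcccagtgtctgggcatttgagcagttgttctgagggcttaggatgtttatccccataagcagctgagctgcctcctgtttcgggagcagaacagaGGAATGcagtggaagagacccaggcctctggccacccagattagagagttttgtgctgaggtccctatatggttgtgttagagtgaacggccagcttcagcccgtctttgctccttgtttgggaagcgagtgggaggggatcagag
Cnn2: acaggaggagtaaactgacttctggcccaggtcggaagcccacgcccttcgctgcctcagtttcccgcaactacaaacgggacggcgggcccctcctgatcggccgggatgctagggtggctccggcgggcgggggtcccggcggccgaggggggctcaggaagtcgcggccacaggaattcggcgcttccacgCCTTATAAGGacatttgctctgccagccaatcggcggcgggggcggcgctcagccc
Myl9: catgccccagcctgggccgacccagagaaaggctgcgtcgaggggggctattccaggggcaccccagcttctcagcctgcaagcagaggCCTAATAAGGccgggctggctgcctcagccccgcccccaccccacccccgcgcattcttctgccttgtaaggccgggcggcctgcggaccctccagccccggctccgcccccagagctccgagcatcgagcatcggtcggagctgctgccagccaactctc
Tpm1: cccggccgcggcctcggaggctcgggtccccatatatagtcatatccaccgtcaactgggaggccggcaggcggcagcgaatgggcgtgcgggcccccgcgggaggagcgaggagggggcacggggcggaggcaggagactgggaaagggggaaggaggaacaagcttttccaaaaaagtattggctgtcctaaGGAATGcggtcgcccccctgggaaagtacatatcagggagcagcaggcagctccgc
Ccn1: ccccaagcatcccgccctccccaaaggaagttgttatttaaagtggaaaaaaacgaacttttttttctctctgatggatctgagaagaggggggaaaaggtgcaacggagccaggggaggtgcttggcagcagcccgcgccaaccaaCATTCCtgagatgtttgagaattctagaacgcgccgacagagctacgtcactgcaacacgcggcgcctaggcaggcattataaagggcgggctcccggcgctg
Ankrd1: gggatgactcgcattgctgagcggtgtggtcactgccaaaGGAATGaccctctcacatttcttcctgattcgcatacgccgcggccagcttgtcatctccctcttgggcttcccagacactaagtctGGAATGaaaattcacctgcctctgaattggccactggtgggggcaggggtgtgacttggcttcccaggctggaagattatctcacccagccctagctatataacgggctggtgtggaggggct

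The TEAD core was found in 4 of the 8 genes, at -146 from the start in Acta2, -56 in Tpm1, -103 in Ccn1 and -210 and -123 in Ankrd1. In all, 14.7% of 32851 promoters of 300 bases held it on either strand. The CArG box was found at -56 in Cnn2 and at -161 in Myl9, and 1.63% of all promoters held it. These motifs do not overlap each other in the windows shown. A match is a run of letters and not a binding site, and no match says only that the letters are not in this window. No search by rule was made for looser forms of the CArG box, so those named next are examples. Other stretches may hold some too. The Acta2 stretch holds ccctatatgg and ccttgtttgg, and the Myl9 stretch also ccttgtaagg, each with a G or C among the A and T bases. The lack of a strict CArG box in Acta2 therefore does not mean that SRF has no element there.

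Acta2 stood out among the 10 genes. It was almost lost in clone E5 and not lower in clone E3. Both are Cd47 KO clones, and the part of the edit in this was not tested. Acta2 encodes smooth muscle α-actin, the actin isoform of smooth muscle cells and myofibroblasts (GRCm39 chromosome 19, 34218490 to 34232990, minus strand). Its level was 1.18, 1.51 and 2.05 CPM in the WT libraries, 2.02, 2.47 and 2.42 in E3, and 0.0646, 0.0868 and 0.111 in E5. The E5 libraries held 3, 4 and 6 reads against 59 to 97 in WT and 101 to 117 in E3, so the E5 values did not overlap the others, while the E3 and WT values overlapped. Acta2 fell by 4.12 on the log2 scale in E5 (SE 0.33, FDR = 1.34e-05), which is 17.4-fold lower than WT. Against E3 the E5 level was 25.3-fold lower (log2 fold change -4.66, SE 0.32, FDR = 3.25e-06). In E3 the log2 fold change against WT was 0.54 (SE 0.22, FDR = 0.0903) and did not pass the test, though it did without WT replicate 3 (FDR = 0.0434). Both E5 calls held when any 1 library was left out, with log2 fold changes of -4.34 to -3.89 against WT and -4.88 to -4.50 against E3, but a filter that asked for 10 counts in every library removed the gene.

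The level of Acta2 was low in every line. Per kb of exon it stood at 0.49 CPM in WT, 0.714 in E3 and 0.0271 in E5, against 884, 1127 and 938 for Actb, the main cytoplasmic actin. Actb gave a log2 fold change of 0.09 in E5 (SE 0.14, FDR = 0.710) and Actg1, the other cytoplasmic actin, 0.22 (SE 0.09, FDR = 0.127). The skeletal, cardiac and enteric muscle actins Acta1, Actc1 and Actg2 had at most 6 counts in any library. The actin genes are close copies of each other, and how the authors' counting shared reads between them is not given in the sources used here, so a low Acta2 count is uncertain to that extent. Exons of Acta2 also share 301 bases with Stambpl1 on the opposite strand, and the strand setting of the counting is not given either.

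Fibroblast markers, summed, were lower in E5 than in WT, as Acta2 was, and higher in E3, where Acta2 did not pass the test. Their summed level was 26.5 to 33.5 CPM in WT, 43.9 to 76.8 in E3 and 17.2 to 20.5 in E5. Most of it was Pdgfra, at a mean of 25.9 CPM in WT, 50.7 in E3 and 17.7 in E5. Of the 4 genes, 3 were tested. All 3 rose in E3, and Pdgfrb and Col1a1 fell in E5, while Pdgfra had a log2 fold change of -0.55 there (FDR = 0.0765). Pdgfrb, a receptor of fibroblasts and pericytes, was at 1.32 ± 0.12 CPM in WT (SD, n = 3), 5.56 ± 1.18 in E3 and 0.311 ± 0.063 in E5, with an FDR of 6.91e-05 for E3 and 0.000274 for E5 against WT. Col1a1, the collagen I chain, was at 1.67 ± 0.17, 3.31 ± 0.68 and 0.606 ± 0.21 CPM. Thy1 had 0 counts in all 9 libraries. Summed epithelial markers, given above, went the other way, lower in E3 and higher in E5 than in WT. The part of these markers in the Acta2 result was not tested, and in bulk RNA fewer cells of a type and less RNA per cell cannot be told apart.

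No tested gene near Acta2 was lost in E5. Of the 5 genes tested within 500 kb on either side, a window set after the values were seen, 1 rose and 1 fell against WT, and their log2 fold changes ran from -0.48 to 0.62. Over all tested genes, 8.96% rose and 11.7% fell in E5. Stambpl1, a deubiquitinase gene that overlaps Acta2 on the opposite strand, fell by 0.48 on the log2 scale (FDR = 0.00942). Ifit2, an interferon-induced gene, rose by 0.41 (FDR = 0.0299). Fas, the death receptor gene whose start lies 35 kb away, had a log2 fold change of 0.62 in E5 (FDR = 0.404). In E3, 4 of the 5 rose and Stambpl1 fell, with Fas at 2.22 (FDR = 0.00239) and Ifit3 at 1.71 (FDR = 0.000734). Over all tested genes, 15.7% rose and 14.7% fell in E3, and shares over 5 genes are coarse.

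**Figure D1:**
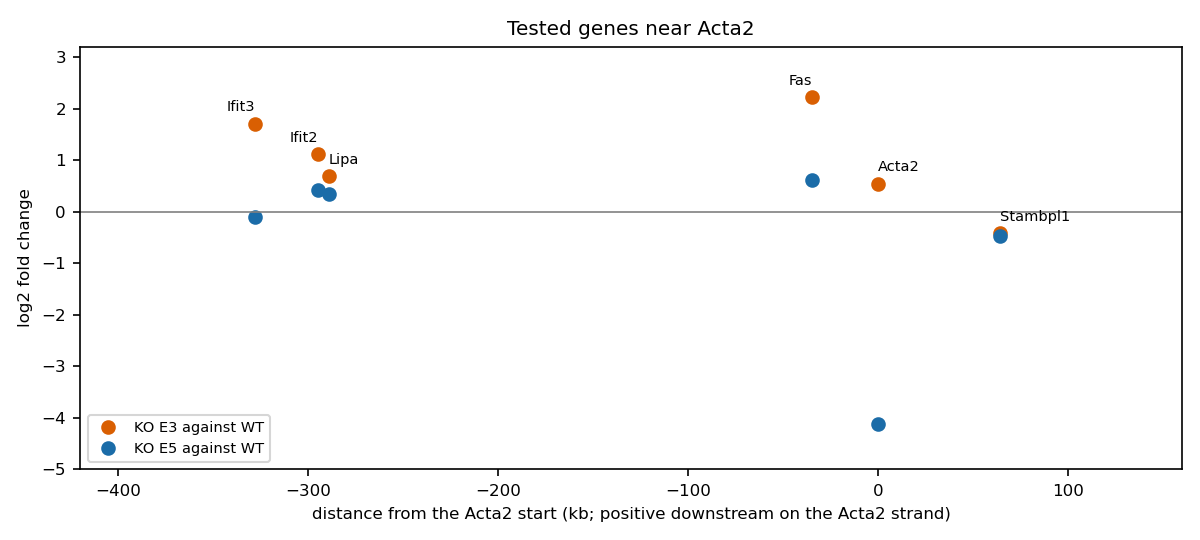
Log2 fold change against WT of Acta2 and the 5 tested genes near it, by the distance between start sites in kb on the strand of Acta2; orange points are clone E3 and blue points clone E5. Acta2 in E5 lies at -4.12, while the 5 neighbours in E5 lie between -0.48 and 0.62.

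Tpm1 and Tpm2, tropomyosin genes, rose in clone E3 by modest factors. Tropomyosins lie along actin filaments and set which proteins, myosin included, can bind them. Tpm1 (chromosome 9, 66929872 to 66956688, minus strand) was at 468, 532 and 571 CPM in WT, 673, 781 and 814 in E3, and 679, 606 and 511 in E5. Every E3 value was above every WT value, and the E5 values overlapped both. Tpm1 rose 1.44-fold in E3 (log2 fold change 0.53, SE 0.13, FDR = 0.0123), while E5 gave 0.19 against WT (SE 0.13, FDR = 0.346) and -0.34 against E3 (SE 0.13, FDR = 0.0751). The difference between the clones passed without E5 replicate 1 (FDR = 0.0491) and with upper-quartile scaling (FDR = 0.0342).

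Tpm2 (chromosome 4, 43514711 to 43523765, minus strand) was at 56.8, 60.8 and 62.2 CPM in WT, 72.4, 78.0 and 111 in E3, and 84.3, 80.1 and 74.3 in E5. All 6 KO values lay above the WT values, and the highest came from replicate 3 of E3. Tpm2 rose 1.45-fold in E3 (log2 fold change 0.54, SE 0.15, FDR = 0.0205), and E5 gave 0.41 (SE 0.15, FDR = 0.0800). Without replicate 3 of E3 the change in E3 was smaller, at 0.32 (SE 0.07, FDR = 0.0037). Between the clones the log2 fold change was -0.13 (SE 0.15, FDR = 0.534), and 0.09 without replicate 3 of E3.

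The E3 call of Tpm1 was lost without WT replicate 1 (FDR = 0.0595), and that of Tpm2 was lost without each WT library in turn (FDR = 0.0766, 0.0641 and 0.0551 without replicates 1, 2 and 3). Tpm2 passed in E5 against WT when replicate 3 of E3 was left out (FDR = 0.0004).

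Cnn2 was the calponin gene that LLC cells used among the 2 listed. Calponins bind actin and restrain myosin; Cnn1 is the form of differentiated smooth muscle and Cnn2 that of many other cell types. Cnn2 (chromosome 10, 79824418 to 79831896, plus strand) was at 131, 138 and 141 CPM in WT, 151, 165 and 195 in E3, and 179, 172 and 154 in E5. All 6 KO values lay above the WT values, by a small margin. The log2 fold change was 0.32 in E3 (SE 0.11, FDR = 0.0551) and 0.30 in E5 (SE 0.11, FDR = 0.0891), and neither passed the test. Cnn2 did pass in E3 with DESeq2 (FDR = 0.0340), in E3 without its replicate 1 (FDR = 0.0302), and in E5 without replicate 3 of E3 (FDR = 0.0046). Without that library the E3 change was smaller, at 0.21, with a smaller SE of 0.08 (FDR = 0.0495). E5 against E3 gave -0.02 (SE 0.11, FDR = 0.906), and 0.09 without replicate 3 of E3.

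Tagln, Cnn1 and Myl9 were at or near the detection limit. Tagln encodes transgelin (SM22α), an actin-binding protein of smooth muscle, and Myl9 a regulatory light chain of smooth muscle and nonmuscle myosin. Tagln had 6, 2 and 1 reads in WT, 1, 0 and 4 in E3, and 4, 2 and 1 in E5. Cnn1 had 1, 0 and 1 reads in WT, 1 in each E3 library and 0 in each E5 library. Both genes were therefore at a few reads at most in all 3 lines, and no fold change is given. Myl9 had 5, 0 and 6 reads in WT, 12, 3 and 7 in E3, and 3, 0 and 0 in E5, groups that overlap between neighbours in the order E5, WT, E3. An exact permutation test of the CPM values gave two-sided p = 0.4 to 0.7 for the 3 genes in either clone against WT, and with 3 libraries against 3 it cannot go below p = 0.1. Exons of Cnn1 share 961 bases with Elof1 and those of Tagln 123 bases with Pcsk7, both on the opposite strand.

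Ccn1 separated the clones. Ccn1, also called Cyr61, encodes a secreted matrix protein that binds integrins and is an early target of both YAP and SRF. Ccn1 (chromosome 3, 145352731 to 145355736, minus strand) was at 19.0, 16.2 and 13.9 CPM in WT, 24.4, 20.3 and 24.3 in E3, and 14.8, 10.8 and 9.17 in E5. The E3 values lay above all others, and the highest E5 value lay within the range of WT. Against WT neither clone passed, at a log2 fold change of 0.49 in E3 (SE 0.18, FDR = 0.0622) and -0.50 in E5 (SE 0.18, FDR = 0.0786). E5 was 1.99-fold lower than E3 (log2 fold change -0.99, SE 0.18, FDR = 0.00233), and this held with any 1 library left out. The differences from WT were close to the threshold. E3 passed with DESeq2 (FDR = 0.0379) and without replicate 1 of E5 (FDR = 0.0333), and E5 passed with DESeq2 (FDR = 0.0468), without its own replicate 1 (FDR = 0.0212) and without replicate 3 of E3 (FDR = 0.0295). Both clones also passed with a replicate block, whose values are given in the last section.

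Ankrd1 rose in clone E5. Ankrd1, or CARP, is a nuclear and sarcomeric ankyrin repeat protein of muscle that is also a target of YAP in other cells. Ankrd1 (chromosome 19, 36089361 to 36097499, minus strand) was at 11.1, 10.3 and 10.6 CPM in WT, 11.4, 14.4 and 14.2 in E3, and 18.8, 16.5 and 16.4 in E5. The 3 lines did not overlap, in the order WT, E3, E5, although the lowest E3 value was close to the highest WT value. Ankrd1 rose 1.61-fold in E5 (log2 fold change 0.69, SE 0.12, FDR = 0.00243), and this held with any 1 library left out. E3 gave 0.32 against WT (SE 0.12, FDR = 0.0643), passing only with DESeq2 (FDR = 0.0475), with upper-quartile scaling (FDR = 0.0381) and without its replicate 1 (FDR = 0.0209) among the alternatives run. E5 was higher than E3 by 0.36 (SE 0.12, FDR = 0.0383), a call that was lost in 7 of the 9 fits that left out 1 library (each WT library, E3 replicate 1 and each E5 library, FDR = 0.0586 to 0.136).

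Ccn2 was nearly silent. Ccn2, or CTGF, encodes a secreted matrix protein close to Ccn1 and is a widely measured target of YAP. It had 2, 0 and 0 reads in WT, 4, 13 and 9 in E3, and 9, 5 and 7 in E5, so that every KO library had more than any WT library. With WT at or under the limit of 3 counts in each library, the mean level was at least 2.96-fold higher in E3 and at least 2.32-fold higher in E5. An exact permutation test gave two-sided p = 0.1 in E3 and in E5 against WT, the lowest possible with 3 libraries against 3. After Benjamini-Hochberg adjustment over the 4 genes below the filter, this exact permutation test gave p = 0.4 in each clone. An exact permutation test of the 6 KO libraries pooled against the 3 WT libraries gave two-sided p = 0.0238 (adjusted p = 0.0952). Pooling treats culture replicates of the same clone as independent, and 2 clones against 1 WT line cannot test an effect of the Cd47 edit. When no filter was applied and 26158 genes were tested, edgeR gave FDR = 0.00717 in E3 and 0.0267 in E5. At this depth the difference is one of a few reads among more than 44257404 per library.

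**Figure D2:**
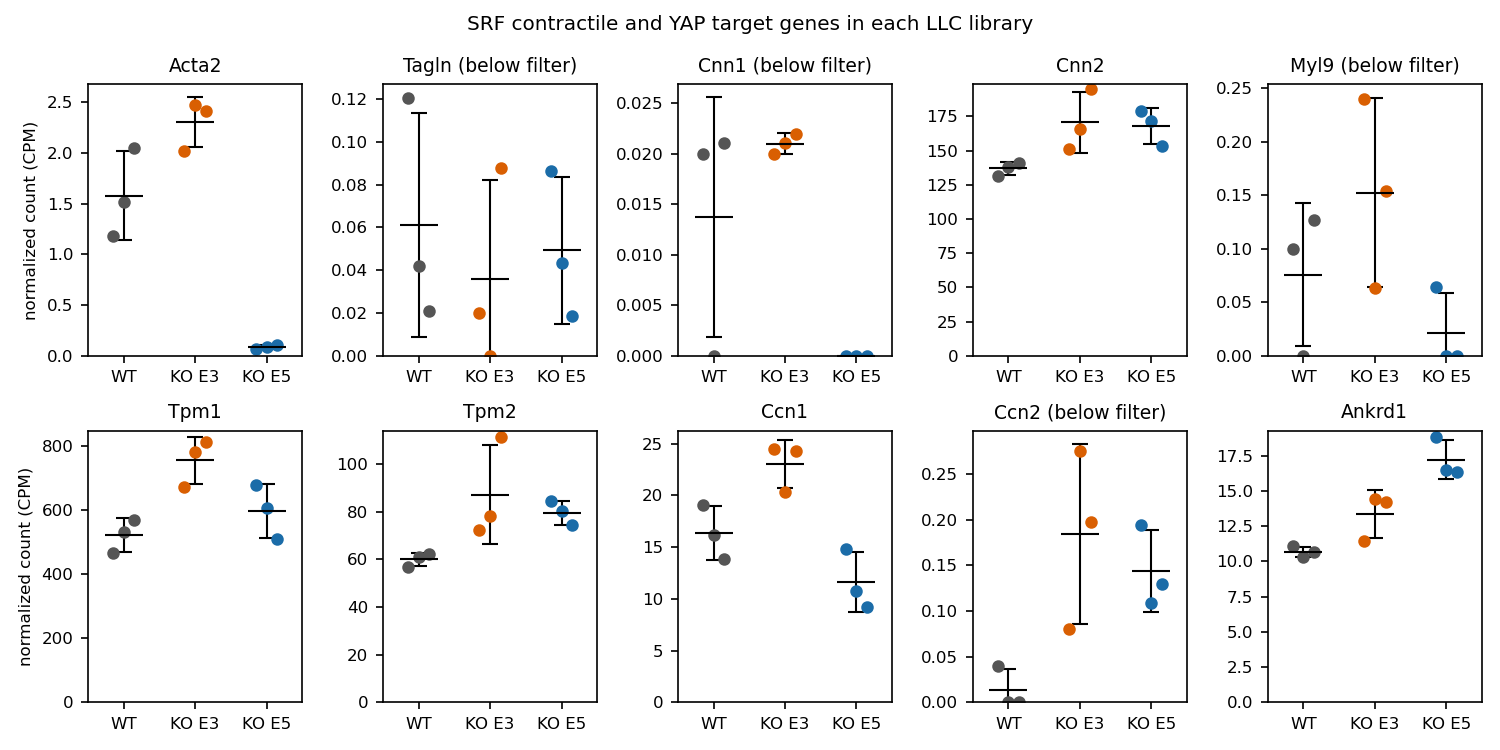
Normalized count (CPM) of the 10 genes in each library, on an axis from 0 in each panel; points are libraries, the horizontal line is the mean and the bars are ± SD of 3 libraries. Acta2 in KO E5 lies at 0.0646 to 0.111 CPM, below all other libraries, and the panels marked as below filter hold at most 13 reads in any library.

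Counted over the 6 tested genes, 2 rose in E3 (Tpm1 and Tpm2) and none fell at an FDR under 0.05, where 15.7% of all tested genes rose and 14.7% fell. At an unadjusted p under 0.05 all 6 were higher and 0 lower, where 21.4% and 20% of all genes were. DESeq2 counted 5 higher and 0 lower, against 17.5% and 16.7% of all genes. None was a DEG, which also needs an absolute log2 fold change above 1, against 5.43% of all genes higher and 4.39% lower. In E5, Ankrd1 rose and Acta2 fell at an FDR under 0.05, where 8.96% rose and 11.7% fell. Acta2 was the only DEG of the 6 in E5, against 2.69% higher and 5.52% lower over all genes. Between the clones, Ankrd1 was higher in E5, and Acta2 and Ccn1 were lower, where 14.7% of all genes were higher and 17.2% lower. Acta2 alone was a DEG there, against 3.49% higher and 7.52% lower over all genes, and Ccn1 joined it without E3 replicate 2 or E5 replicate 1. Their median log2 fold change was 0.51 in E3, 0.25 in E5 and -0.23 between the clones, while over all tested genes it was 0.01, -0.0023 and -0.01. Shares over 6 genes are coarse, and both clones were compared with the same WT libraries.

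The count in E5 moved with 1 library, and so did that over all genes. With replicate 3 of E3 left out, 5 of the 6 passed in E5 against WT, 3 higher (Cnn2, Tpm2 and Ankrd1) and 2 lower (Acta2 and Ccn1), while the share of all tested genes that passed went from 20.6% to 42%. In the same fit it went from 30.5% to 43.2% in E3 and from 31.9% to 44.1% between the clones, and the counts given for that fit in the other lists stand beside these shares. The count in E3 was 0 without WT replicate 1, 1 without WT replicate 2 and 4 without its own replicate 1, where 21.5%, 19.3% and 27% of all genes passed. By ranges alone, all E3 libraries lay above all WT libraries for 5 of the 6 genes, where 22.4% of all genes did so and 23% lay below. All E5 libraries lay above WT for 3 genes and below for 1, where 27% and 28.4% of all genes did so. E5 lay above E3 for 1 gene and below for 2, where 21.8% and 22.7% did so.

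**Figure D3:**
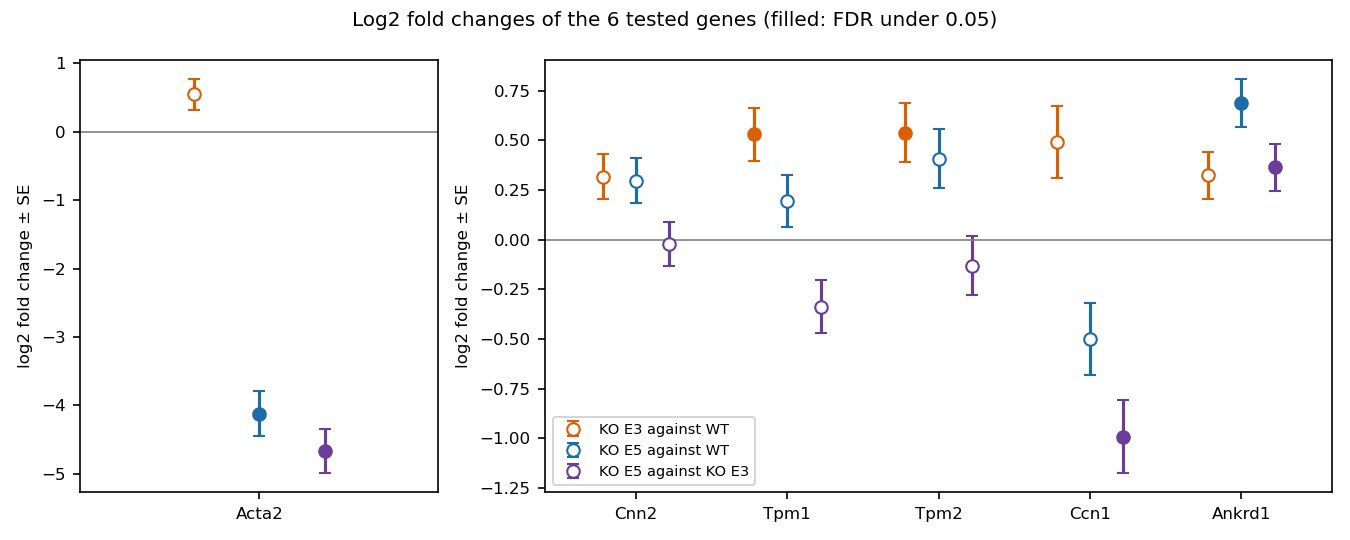
Log2 fold change ± SE of the 6 tested genes in the 3 comparisons, Acta2 on an axis of its own at the left; filled points have an FDR under 0.05 by edgeR. All 6 E3 points against WT lie between 0.32 and 0.54, while the E5 points run from -4.12 for Acta2 to 0.69 for Ankrd1.

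Levels per kb of exon spanned a wide range in WT cells. Tpm1 was at 64.8 CPM per kb, Cnn2 at 55.5 and Tpm2 at 14.2, then Ccn1 at 8.06, Ankrd1 at 3.58 and Acta2 at 0.49. In E5 Ankrd1, at 5.77, and Ccn1, at 5.70, changed places within their spread. The 4 genes below the filter were at 0.033 CPM per kb or less in WT. Relatives of these genes that nonmuscle cells use were present. The calponin gene Cnn3 was at 72.7 CPM per kb in WT, the light chain gene Myl12a at 37.7 and the tropomyosin Tpm4 at 92.6. Exon length here is the union over all annotated transcripts (GENCODE M39), so genes with long alternative exons come out low.

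**Figure D4:**
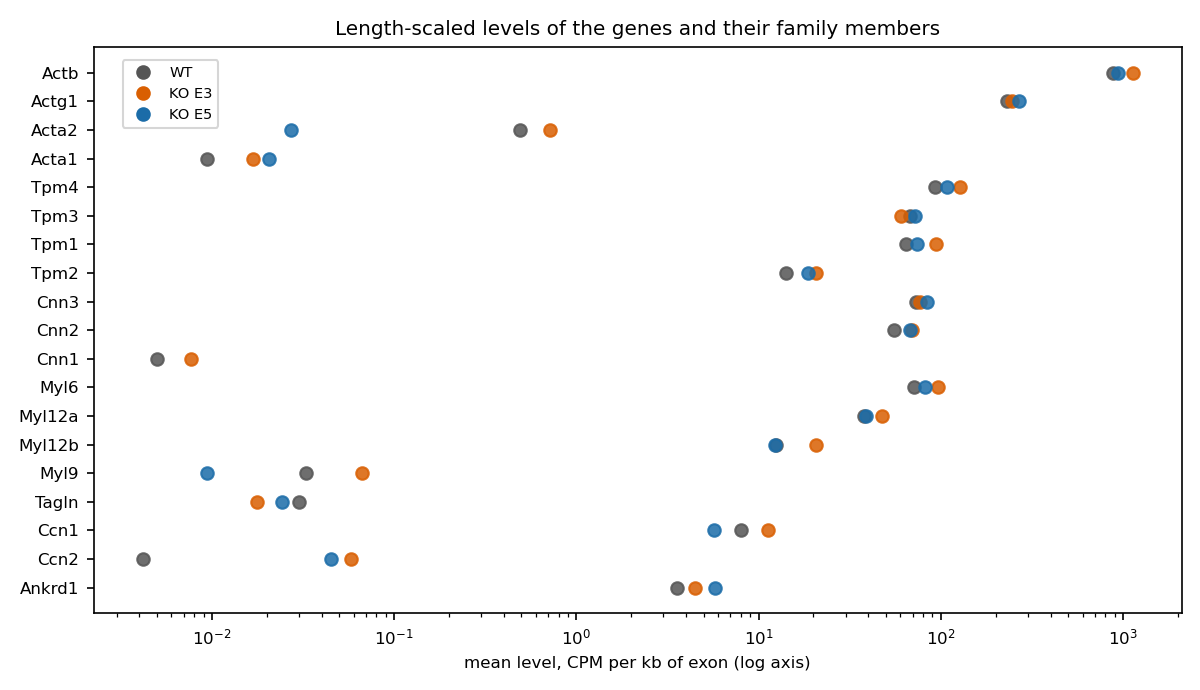
Mean level in CPM per kb of exon, on a log axis, of the 10 genes and members of the same families in WT (grey), KO E3 (orange) and KO E5 (blue); Cnn1 in E5, at 0, is not drawn. Tpm1, Cnn2 and the other tropomyosins and calponins expressed here lie above 10 CPM per kb, and Tagln, Cnn1, Myl9 and Ccn2 lie below 0.1.

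Across the 9 libraries the genes did not move as 1 group. Pearson's r of log2 CPM was 0.97 for Cnn2 with Tpm2, 0.81 for Cnn2 with Tpm1 and 0.81 for Tpm1 with Tpm2. Acta2 had r of 0.77 with Ccn1 and -0.77 with Ankrd1, and -0.15 with Tpm2. These values describe 9 libraries from 3 lines, which share line and culture. The genes with the pattern most like that of Acta2, among 10392 with an average log2 CPM above 1, were Ccdc3, Oplah, Tmem98, Sema3f and Pisd (r = 0.990 to 0.993). Oplah, the 5-oxoprolinase of the glutathione cycle, had a mean of 70.8 CPM in WT, 90.9 in E3 and 2.31 in E5, and Sema3f, a secreted guidance protein, 17.2, 33.0 and 0.584. Most like Ccn1 were Zfp983, Cdr2, Otud1, Lrrc1 and Dennd3 (r = 0.952 to 0.970), and most like Ankrd1 were Pdk3, Fabp5, Mblac2, Dusp22 and Scoc (r = 0.957 to 0.991). Fabp5, a fatty acid carrier, had a mean of 11.1 CPM in WT, 19.7 in E3 and 39.0 in E5.

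Other contractile and actin cytoskeleton genes moved in both directions. Of 32 listed, 26 were tested, and 4 rose and 4 fell in E3, 3 rose and 3 fell in E5, and 3 were higher and 4 lower in E5 than in E3. Over all tested genes 15.7% rose and 14.7% fell in E3, 8.96% and 11.7% in E5, and 14.7% and 17.2% between the clones. These shares apply to the counts of each list below as well. The median log2 fold changes of this list were 0.09, 0.07 and 0.0036. Changes of the genes named in this and the other lists are on the log2 scale where no fold is given. Cald1, caldesmon, which restrains myosin on actin, was at 1032 to 1085 CPM in WT, 560 to 702 in E3 and 586 to 688 in E5, and fell by 0.72 on the log2 scale in both clones (FDR = 0.000965 and 0.00118). Zyx, zyxin of focal adhesions and an SRF target, fell by 0.62 in E3 (FDR = 0.000562) and by 0.70 in E5 (FDR = 0.000293). Tgfb1i1, the focal adhesion adaptor Hic-5, was 10.6-fold lower in E3 and 9.38-fold lower in E5 (FDR = 5.36e-05 and 5.24e-05), from 58 to 82 reads in WT to 3 to 9 reads in the KO libraries. These 3 genes lay below WT in every KO library of both clones. Of all tested genes, 23% lay below WT in every E3 library and 28.4% in every E5 library, and the share in both was not counted. E5 against E3 passed for none of the 3 (FDR = 0.514 to 0.994).

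Myh10 and Mylk, of the myosin motor and its control, rose in E5. Myh10, nonmuscle myosin IIB, was at 92.5 to 101 CPM in WT, 69.4 to 168 in E3 and 249 to 258 in E5. It rose 2.60-fold in E5 (log2 fold change 1.38, SE 0.25, FDR = 0.00351), and E3 gave 0.40 (FDR = 0.256). Its lowest E3 value came from replicate 3, and without that library Myh10 passed in E3 too (0.70, FDR = 1.34e-05). In that fit 43.2% of all genes passed in E3. Myh10 was higher in E5 than in E3 by 0.98, and by 0.69 without that library. Mylk, the kinase that activates myosin through its light chain, rose by 0.82 in E5 (FDR = 0.0114), and Csrp2, a LIM protein of smooth muscle, rose by 0.65 in E3 (FDR = 0.0317) and 0.98 in E5 (FDR = 0.00608); without replicate 3 of E3 the E3 value was 0.34 (FDR = 0.0216). Myl12b, a nonmuscle light chain, rose by 0.73 in E3 (FDR = 0.00285). Of the other tropomyosins, Tpm4 rose by 0.45 in E3 (FDR = 0.00766), and Tpm3, at a mean of 547 CPM in WT, gave -0.16 (FDR = 0.280). Synpo2, an actin bundling protein of muscle, rose 3.34-fold in E3 (FDR = 0.000526) and was 4.90-fold lower in E5 than in E3 (FDR = 8.52e-05). Fhl2, a LIM cofactor, fell by 0.34 in E3 (FDR = 0.0271) and Des, desmin, was lower in E5 than in E3 by 1.35 (FDR = 0.0453). The remaining 2 of the clone differences were Fhl2, higher by 0.48, and Csrp1, lower by 0.39 (FDR = 0.00499 and 0.0436), beside Myh10, Mylk and Myl12b. Without replicate 3 of E3 the difference in Des did not pass (-1.05, FDR = 0.0841), that in Csrp1 was -0.22 (FDR = 0.0387), and the number that passed in E5 was 14 in place of 6, while the share over all genes rose from 20.6% to 42%.

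Further YAP targets gave no common direction either. Of 19 listed, 17 were tested, and 1 rose and 3 fell in E3, 2 rose and 3 fell in E5, and 3 were higher and 3 lower in E5 than in E3. In the same fit 30.5% of all genes passed in E3, 20.6% in E5 and 31.9% between the clones. The median log2 fold changes of the list were -0.05, 0.06 and 0.14. Gadd45a, a growth arrest and stress gene, was at 104 to 108 CPM in WT, 13.5 to 33.8 in E3 and 37.6 to 52.9 in E5. It fell by 2.04 (FDR = 0.000471) and 1.20 (FDR = 0.0106) on the log2 scale in the clones. Fjx1, a secreted factor, fell by 0.57 in E3 (FDR = 0.0287) and 1.27 in E5 (FDR = 0.000582). Foxf2, a forkhead factor of mesenchyme, fell by 0.31 in E3 (FDR = 0.0221) and rose by 0.85 in E5 (FDR = 7.96e-05). Nt5e, the surface nucleotidase CD73, rose 8.95-fold in E5 (FDR = 3.3e-05), from a mean of 0.172 to 1.57 CPM. Amotl2, which holds YAP in the cytoplasm and is its target, rose by 0.59 in E3 (FDR = 0.00795). In E5 against E3, Nt5e, Foxf2 and Gadd45a were higher by 2.51, 1.17 and 0.84, and Amotl2 and Fjx1 were lower (log2 fold changes of -0.80 and -0.70), beside Rbms3.

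Rbms3, an RNA-binding protein gene, was lost in E5. It had 328, 374 and 369 reads in WT, 307, 278 and 218 in E3, and 0 in each E5 library, at least 120-fold lower than WT and at least 90.8-fold lower than E3 against a limit of 3 counts per library. The median over the list is the same with the gene at this bound. Well known targets of YAP such as Axl, F3, Lats2 and Myof did not pass in either clone with all libraries in the fit. Their log2 fold changes were -0.10 to 0.45, and they were picked for mention after their values were seen. Without replicate 3 of E3, Myof passed in E3 (0.50, FDR = 0.000371) and in E5 (0.46, FDR = 0.000403). Lats2 then passed in E3 (0.25, FDR = 0.0462) and not in E5, and Axl and F3 passed in neither clone. The number of YAP targets that passed in E3 was 10 without its replicate 3 and 2 without each WT library, in place of 4. Without each WT library 19.3% to 21.5% of all genes passed in E3, in place of 30.5%. With replicate 3 of E3 left out, 9 YAP targets passed in E5 and 10 between the clones, in place of 5 and 6. Over all genes, the share that then passed was 43.2% in E3, 42% in E5 and 44.1% between the clones.

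Of SRF and its cofactors, Elk3 passed by edgeR in E5, against WT and against E3. Of the 7 listed, 6 were tested, and 0 passed in E3 by edgeR, 0 at an unadjusted p under 0.05 and 0 by DESeq2. In E5 against WT, 1 passed by edgeR and 2 by DESeq2. Srf was at 62.4 ± 1.14 CPM in WT (SD, n = 3), 60.0 ± 6.54 in E3 and 60.0 ± 1.27 in E5, so that its log2 fold changes were -0.05 (SE 0.10, FDR = 0.712) and -0.06 (SE 0.10, FDR = 0.740). Mrtfa gave -0.05 and -0.13, and Mrtfb -0.12 and 0.62 (FDR = 0.197 in E5). Without replicate 3 of E3, Mrtfb passed in E3 (0.24, FDR = 0.0201) and in E5 (0.63, FDR = 1.64e-05), and Mrtfa passed in neither. Elk3, a partner of SRF from the ternary complex family, rose by 0.46 in E5 (SE 0.09, FDR = 0.00459), while Elk1 gave 0.35 (FDR = 0.0719) and Elk4 -0.01 (FDR = 0.972). Myocd, the cofactor of smooth muscle and heart, had 2 reads in 1 E5 library and 0 in the others. The median over the list was -0.05 in E3, 0.17 in E5 and 0.20 between the clones, where Elk3 was higher in E5 (FDR = 0.0415). Leaving out replicate 3 of E3 gave counts of 2, 3 and 3, in place of 0, 1 and 1, where 43.2%, 42% and 44.1% of all genes passed, and the call of Elk3 between the clones was lost without each WT library, E5 replicate 1 or E5 replicate 2.

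Of the TEAD genes, partners of YAP on DNA, Tead2 and Tead3 rose and Tead4 fell in E3. Yap1 itself gave log2 fold changes of 0.02 in E3 (SE 0.11, FDR = 0.921) and -0.18 in E5 (SE 0.11, FDR = 0.262), and Tead1 -0.18 and -0.20 (FDR = 0.654 and 0.664). Without replicate 3 of E3, Yap1 passed as lower in E5 against WT (-0.18, FDR = 0.0354) and against E3 (-0.29, FDR = 0.00454). Tead1 then passed only between the clones (-0.32, FDR = 0.00777). In that fit 42% of all genes passed in E5 and 44.1% between the clones. With all libraries in the fit, Tead2 rose by 0.68 in E3 (FDR = 0.00152) and Tead3 by 0.74 (FDR = 0.00202). Tead4 fell by 0.86 in E3 (FDR = 0.0118). Wwtr1, which encodes TAZ, rose by 0.43 in E5 (FDR = 0.0428). Of 21 genes of the Hippo pathway and TEAD factors, 20 were tested, and 3 rose and 5 fell in E3, 2 rose and 1 fell in E5, and 5 were higher and 3 lower in E5 than in E3. Of all tested genes, 30.5%, 20.6% and 31.9% passed in these comparisons. The medians of the list were -0.16, 0.0014 and 0.18.

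Amot moved furthest of these, and in opposite directions. Amot, angiomotin, binds both actin and YAP, and was at 32.4 to 36.5 CPM in WT, 82.5 to 185 in E3 and 11.7 to 16.6 in E5. It rose 4.26-fold in E3 (FDR = 0.000295) and was 2.48-fold lower in E5 (FDR = 0.00535). Wwc1, KIBRA, an activator of the LATS kinases, fell by 0.98 in E3 (FDR = 0.000873). The kinases Lats1 and Stk3 and the adaptor Mob1a also fell in E3, by 0.73, 0.53 and 0.62 (FDR = 0.0482, 0.00295 and 0.00624), and the scaffold Sav1 rose by 0.36 in E5 (FDR = 0.0209). In E5 against E3, Wwc1, Tead4, Wwtr1, Nf2 and Sav1 were higher, by 1.29, 1.08, 0.69, 0.47 and 0.32, and Amot, Tead3 and Tead2 lower (-3.40, -0.61 and -0.33). When replicate 3 of E3 was left out, 12 genes passed in E5 and 14 between the clones, in place of 3 and 8, and 42% and 44.1% of all genes did so, in place of 20.6% and 31.9%. In that fit Lats1 fell by 0.44 in E3 (FDR = 0.000517), and the clone differences of Nf2 and Tead2 were 0.30 and -0.21 (FDR = 0.00206 and 0.0394). The count was 1 in E5 and 5 between the clones without each WT library, E5 replicate 1 or E5 replicate 2. Of all genes, 11.9% to 13.1% passed in E5 in those fits and 21.7% to 27.7% between the clones.

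RhoA and ROCK pathway genes, which act upstream of both routes through actin, were all 19 tested. In E3, 2 rose and 2 fell, in E5 1 rose and 0 fell (2 fell at an unadjusted p under 0.05 and 1 by DESeq2), and 3 were higher and 2 lower in E5 than in E3. The shares of all tested genes that passed by edgeR were 30.5%, 20.6% and 31.9%. The medians of the list were -0.05, 0.09 and 0.0022. Arhgef2, or GEF-H1, an activator of RhoA, was at 430 to 482 CPM in WT, 147 to 196 in E3 and 258 to 392 in E5, and was 2.80-fold lower in E3 (FDR = 0.000155). Arhgef11, another activator of RhoA, was 2.75-fold lower in E3 (FDR = 0.0011). The cofilin genes Cfl1 and Cfl2, whose products cut actin filaments, rose by 0.63 and 0.39 in E3 (FDR = 0.0167 and 0.0190), and Cfl2 by 0.64 in E5 (FDR = 0.00205). In E5 against E3, Diaph2, a formin, Arhgef2 and Arhgef11 were higher by 1.05, 1.03 and 0.91, and Rhoa and Arhgef1 lower (-0.27 and -0.30, FDR = 0.0472 and 0.0282). Without replicate 3 of E3 the clone difference was 0.69 for Diaph2 (FDR = 7.57e-05) and -0.18 for Rhoa (FDR = 0.0301). Leaving it out made the counts 9 in E3, 8 in E5 and 12 between the clones, in place of 4, 1 and 5, where 43.2%, 42% and 44.1% of all genes passed. The count in E5 was 2 without E3 replicate 1, where 20.7% of all genes passed. Between the clones it was 3 without WT replicate 2, 2 without E5 replicate 1 or 2 and 1 without E5 replicate 3. The shares of all genes there were 26.6%, 24.6%, 21.7% and 22.8%, in the same order.

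Of the paralogs of Ccn1 and Ankrd1, 6 were listed and 4 were tested. At an FDR under 0.05, 2 rose and 1 fell in E3, and 2 rose and 2 fell in E5. Over all tested genes 15.7% rose and 14.7% fell in E3, and 8.96% and 11.7% did so in E5. In E5 against E3, 0 were higher and 1 was lower, where 14.7% and 17.2% of all genes were. Shares over 4 genes are coarse. Ccn3, or NOV, a CCN protein that opposes growth in many cells, was at 46.3 to 50.4 CPM in WT, 10.9 to 14.7 in E3 and 14.7 to 18.1 in E5, 3.61-fold and 2.88-fold lower (FDR = 1.39e-05 and 2.48e-05). Ccn4, or WISP1, a WNT target, rose 2.64-fold in E3 and 1.53-fold in E5 (FDR = 0.000167 and 0.0198), and was lower in E5 than in E3 by 0.78 (FDR = 0.00379). Ccn5 rose by 1.88 and 1.74 on the log2 scale from a mean of 0.245 CPM in WT (FDR = 0.00615 and 0.0127). Ankrd23, a muscle ankyrin repeat gene, fell by 0.45 in E5 (FDR = 0.0455), and Ankrd2 and Ccn6 were below the filter. Ccn1 itself passed in neither clone against WT. In E5, 2 of the 4 passed without each WT library or E5 replicate 1 or 2, where 11.9% to 13.1% of all genes did. Between the clones, 2 in place of 1 passed without replicate 3 of E3, where 44.1% of all genes did. The genes Zyx, Tpm3, Tpm4, Fhl2, Csrp1, Lats1, Mob1a, Stk3, Nf2 and Rhoa fell outside the rule for naming genes and were chosen after their values were seen.

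**Figure D5:**
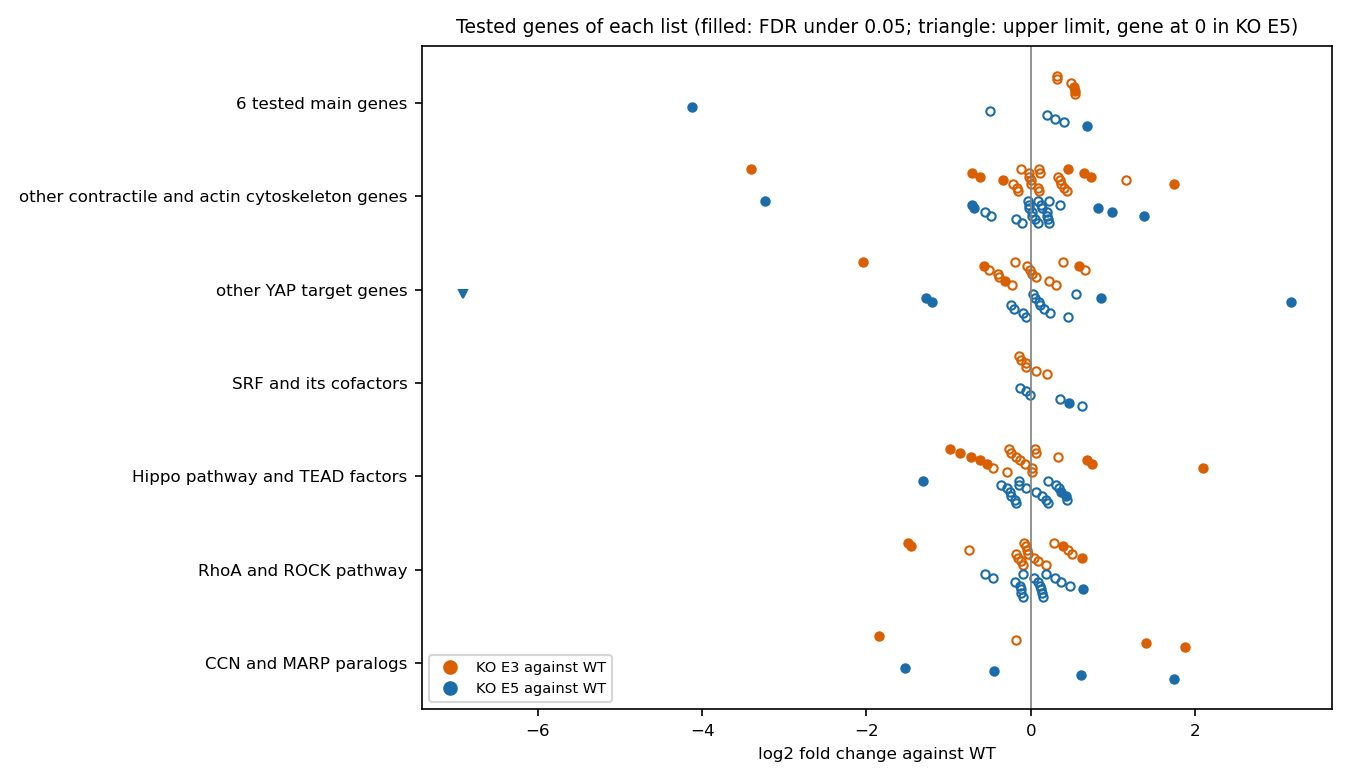
Log2 fold change against WT of each tested gene in the 6 tested main genes and the other lists, in KO E3 (orange, upper row) and KO E5 (blue, lower row); filled points have an FDR under 0.05 by edgeR, and the triangle is the upper limit for Rbms3, at 0 counts in E5. Points lie on both sides of 0 in every list except the main genes in E3, which lie between 0.32 and 0.54.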

How the data were processed

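RNA-seq counts of 3 WT, 3 clone E3 and 3 clone E5 libraries of LLC cells were used. Per the submitters' notes, FastQC, Trimmomatic and STAR (GRCm39) were used for quality control, trimming and alignment. The authors deposited whole-number counts per gene and library, neither normalized nor pooled. The library kit keeps strand. Which program counted the reads, with which strand setting and gene annotation, is not given in the sources used here. The study's own comparisons used DESeq2.

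Counts were tested with edgeR 4.0.16 (R 4.3.3): TMM scaling, filterByExpr (minimum count 10, minimum total 15), a quasi-likelihood fit of the 3 lines together without covariates, and Benjamini-Hochberg adjustment over 14593 genes. DEGs follow the study's thresholds: FDR under 0.05 with a log2 fold change beyond 1 in either direction. SE was taken as the size of the log2 fold change divided by the root of F. The 4 genes below the filter had exact permutation tests. The test was checked on simulated counts.

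The 10 genes, the lists (from general knowledge) and the tests were chosen with earlier results of these data known. From each list, up to 4 genes passing per comparison were named by size, with all SRF cofactors and TEAD genes, and the 5 genes most like Acta2, Ccn1 and Ankrd1. Gene positions are GRCm39 from GENCODE M39, promoters GRCm38.p6 from RefSeq, and no position was carried between the builds. Alternatives were DESeq2 1.42.0, other scalings and filters, 2 groups only, a replicate block and each library left out.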

Additional observations from a re-analysis of the deposited data

Results flagged for a closer look

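The effects of the 2 clones against WT differed for 13 genes, by the test of E5 against E3 itself. For the 10 main genes this means an FDR under 0.05, and for genes of the other lists also a log2 difference beyond 1 in either direction. Values are log2 fold changes of E5 against E3 with the edgeR FDR, and the WT libraries are shared by both clones.

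Among the 10 main genes, Acta2 differed by -4.66 (FDR = 3.25e-06), Ccn1 by -0.99 (FDR = 0.00233) and Ankrd1 by 0.36 (FDR = 0.0383). Among contractile genes, Des differed by -1.35 (FDR = 0.0453; -1.05 and FDR = 0.0841 without replicate 3 of E3) and Synpo2 by -2.29 (FDR = 8.52e-05). Among YAP targets, Foxf2 differed by 1.17 (FDR = 6.55e-06) and Nt5e by 2.51 (FDR = 7.67e-05), and Rbms3, at 0 counts in E5, was at least 90.8-fold lower than in E3. Among Hippo genes, Tead4 differed by 1.08 (FDR = 0.00353), Amot by -3.40 (FDR = 1.08e-05) and Wwc1 by 1.29 (FDR = 0.000135). Among RhoA and ROCK genes, Diaph2 differed by 1.05 (FDR = 0.0314; 0.69 without replicate 3 of E3) and Arhgef2 by 1.03 (FDR = 0.00106).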

How the results depend on the processing

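Counts below are genes at an FDR under 0.05 unless DEGs are named, and the cause of each change was not tested. Without a filter on low counts the 10 main genes held 1 DEG in E3 and 2 in E5, where 1632 and 1373 genes were DEGs. At the FDR alone the main genes numbered 4 in E3 and 4 in E5. RhoA and ROCK genes then numbered 4 in E5 and 3 between the clones. Of all 26158 genes 16.7%, 11.4% and 18.1% passed in E3, E5 and between the clones, in place of 30.5%, 20.6% and 31.9% of 14593. With 10 counts in every library Acta2 was not tested, and the main genes held 0 DEGs in E5, where 571 of 12550 genes were DEGs. At the FDR alone the main genes then numbered 1 in E5 and 1 between the clones. Other YAP targets numbered 3 in E5 and SRF cofactors 0 between the clones. In that fit 18.5% of all genes passed in E5 and 30.9% between the clones. With DESeq2, which called 34.2% of all genes in E3 and 25.2% in E5, the main genes numbered 5 in E3, SRF cofactors 2 in E5, Hippo genes 5 and RhoA genes 3 in E5. Upper-quartile scaling moved the median of all genes to 0.09, -0.02 and -0.10, and 30.5%, 19.9% and 32.6% of all genes passed. With it the main genes numbered 5 in E3 and 2 DEGs between the clones, where 1654 of 14593 genes were DEGs. SRF cofactors numbered 1 in E3 and 0 between the clones, and Hippo genes 5 in E5. With only the 2 groups compared, the counts in E5 were 5 main genes, 14 contractile genes, 9 YAP targets, 3 SRF cofactors, 15 Hippo genes and 8 RhoA genes, where 46.8% of all genes passed in place of 20.6%, and between the clones 0 SRF cofactors, 5 Hippo genes and 2 RhoA genes, where 22% passed in place of 31.9%.

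Replicate numbers did not pair the libraries: same-numbered libraries deviated from their group means with correlations of -0.17 to 0.05. With the replicate block, the main genes held 2 DEGs between the clones, where 1563 of 14593 genes were DEGs. At the FDR alone, SRF cofactors numbered 0 and RhoA genes 3 there, where 26.6% of all genes passed in place of 31.9%. In the same fit Ccn1 passed in E3 (FDR = 0.0362) and E5 (FDR = 0.0493), where 25.1% and 15.8% of all genes did. Ankrd1 did not pass between the clones (FDR = 0.0820).

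When 1 library at a time was dropped, the share of all genes that passed ranged from 19.3% to 43.2% in E3, 11.9% to 42% in E5 and 21.7% to 44.1% between the clones; main genes at the FDR alone ranged from 0 to 4 in E3 and 2 to 5 in E5, and their DEGs between the clones from 1 to 2. In E3, YAP targets ranged from 2 to 10, SRF cofactors from 0 to 2 and RhoA genes from 3 to 9. In E5, contractile genes ranged from 6 to 14, YAP targets from 4 to 9, SRF cofactors from 1 to 3, Hippo genes from 1 to 12, RhoA genes from 1 to 8 and CCN and ankyrin paralogs from 2 to 4. Between the clones, YAP targets ranged from 5 to 10, SRF cofactors from 0 to 3, Hippo genes from 5 to 14, RhoA genes from 1 to 12 and paralogs from 1 to 2. The difference between the clones in Cnn2 ranged from -0.10 to 0.09 (0.094 without E3 replicate 3 and 0.045 without E5 replicate 3) and in Tpm2 from -0.25 to 0.089, the latter without E3 replicate 3. Depth limits Tagln, Cnn1, Myl9 and Ccn2, which had at most 13 reads in a library.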
